A study of Mus musculus with 12 samples.

Results

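The miR-146 family of the mouse comprises the hairpins Mir146, which gives miR-146a, and Mir146b, which gives miR-146b. Its mature products in the deposited table are mmu-miR-146a-5p, mmu-miR-146b-5p, mmu-miR-146a-3p and mmu-miR-146b-3p. These 4 names were taken by name, and all 4 were present among the 1915 mouse microRNA names of the table. Of the 4, the 5p strands passed the filter on low counts and stood among the 341 names tested, while neither 3p strand passed it.

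The names were counted in small RNA libraries from extracellular vesicles of plasma, the membrane-bound particles that cells release into blood. Blood came from male C57BL/6J mice, an inbred strain, 8 days after surgery. The BDL group (6 libraries) had bile duct ligation, in which the common bile duct is tied so that bile backs up into the liver. The sham group (6 libraries) had the control operation. The tissue is labelled as liver and the site as extracellular vesicles. The labels give no age, and no allele or drug for either group. Vesicles were precipitated with a polymer, which also brings down other RNA carriers of plasma, so the counts cannot be tied to vesicles of a given cell type.

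MicroRNAs act through their seed, bases 2 to 8 from the 5′ end, which pairs with messages and lowers their output. miR-146a is transcribed when Toll-like receptor (TLR) or cytokine signalling activates NF-κB, and it represses Traf6 and Irak1, signalling proteins that carry those signals to NF-κB. It is thereby known as a negative feedback regulator in macrophages and lymphocytes. miR-146b has the same seed and is expressed in many of the same cells, but from another locus.

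The mature sequences, from RefSeq on GRCm38.p6, are shown because the seed and the 3′ end decide what the strands can target and how well sequencing can separate them. They run 5′ to 3′, with the seed in capitals.

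mmu-miR-146a-5p: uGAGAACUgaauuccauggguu

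mmu-miR-146b-5p: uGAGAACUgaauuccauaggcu

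mmu-miR-146a-3p: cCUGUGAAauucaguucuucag

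mmu-miR-146b-3p: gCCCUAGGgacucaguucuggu

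The 5p strands share the seed GAGAACU, which no other of the 1679 mature mouse names in that table has. They are the same at 20 of 22 bases and differ by G18A and U21C, counted from the 5′ end, with the base of miR-146a-5p first. The first 17 bases are shared, so a read that ends there fits both, and how the authors assigned such reads is not given in the sources used here. Separate values for the 5p strands are uncertain to that extent. The 3p strands match at 4 of 22 positions, have different seeds, and share their seeds with 0 other names.

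The hairpins are shown with both mature arms in capitals, 5p first, since the arms are compared below.

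Mir146: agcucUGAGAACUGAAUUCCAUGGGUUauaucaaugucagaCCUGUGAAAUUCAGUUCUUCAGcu

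Mir146b: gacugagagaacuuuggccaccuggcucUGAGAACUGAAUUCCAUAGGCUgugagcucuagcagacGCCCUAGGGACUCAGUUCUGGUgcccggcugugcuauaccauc

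Mir146 spans 43374397 to 43374461 on the minus strand of chromosome 11 (GRCm38.p6), 65 bases. It overlaps no other gene of GENCODE M21, an annotation of GRCm38, and the nearest protein-coding gene, Pttg1, is 45789 bases away. Mir146b spans 46342762 to 46342870 on the plus strand of chromosome 19, 109 bases. It lies in an intron of Mfsd13a, a gene of the major facilitator superfamily on the same strand, and starts 30377 bases past the end of Nfkb2, which encodes an NF-κB subunit. The build of the authors' own alignment is not given in the sources used here.

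Depth limits what can be said of the rarer strands. Total counts ran from 121003 to 3506914 in BDL libraries and from 659302 to 2684636 in sham libraries. A name with no count could still have had up to 3, equal to 0.625 to 24 CPM in BDL libraries and 1.04 to 4.58 CPM in sham libraries. CPM here is counts per 1000000 counts of library size, with sizes scaled by trimmed means (TMM). Intervals of shares of counts, and limits for names with no count, cover counting error only, since no molecular identifiers are described. Intervals of log2 fold changes come from the fit and include the spread between libraries. Sample codes end in 24 or 26, a suffix whose meaning is not given, and the BDL libraries with suffix 26 (BDL 2, 4 and 6) are the shallow ones. Each first digit of the codes is shared by a pair of libraries of the same group, and nothing says that every library is a separate animal, so p-values measure the spread between these libraries.

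miR-146b-5p was 3.07-fold lower in BDL vesicles, while the test found no difference for miR-146a-5p. In BDL libraries 1 to 6 miR-146b-5p had 140, 28.8, 120, 96.1, 63.9 and 49.6 CPM. In sham libraries 1 to 6 it had 238, 288, 260, 211, 290 and 250 CPM. In TMM-scaled CPM the groups did not overlap: the highest BDL library (BDL 1) lay below the lowest sham library (sham 4). That separation was not particular to miR-146b-5p. Among names given below, miR-142a-5p, miR-150-5p, miR-181b-5p and miR-451a had it too, as did miR-126a-3p and miR-143-3p. In the other direction, miR-122-5p and miR-192-5p were higher in every BDL library than in any sham library. The share of all names tested that had it was not counted.

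On average miR-146b-5p had 82.9 ± 42.7 CPM in BDL libraries and 256 ± 30.2 CPM in sham libraries (mean ± SD, n = 6 each). The log2 fold change was -1.62 ± 0.34 (SE), with a 95% interval from -2.34 to -0.90 (edgeR adjusted p = 0.00143, by the Benjamini-Hochberg method over all names tested). Of the 341 names tested, 18.2% were lower and 24.6% were higher in BDL at an adjusted p under 0.05, 42.8% in either direction. The 1 call among 2 tested members is to be read against those shares.

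The counts behind these levels differ in precision. The counts of miR-146b-5p were 670, 16, 319, 12, 100 and 27 across BDL 1 to BDL 6, against 164 to 708 in sham libraries. In BDL 4, its 12 counts were 0.00992% of the library, with an exact Clopper-Pearson 95% interval of 0.00512% to 0.0173%. As an unscaled share of counts the groups overlapped, since BDL 1 had 0.0191% and sham 4 had 0.0156%.

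miR-146a-5p did not differ past the threshold, and it was more uneven in BDL. In BDL libraries 1 to 6 it had 1890, 475, 1458, 600, 409 and 998 CPM. In sham libraries 1 to 6 it had 769, 1082, 999.6, 898, 668 and 1096 CPM. BDL 1 and BDL 3 lay above every sham library and BDL 2, 4 and 5 below every sham library. BDL 6 lay inside the sham range, so the groups overlapped.

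The mean of miR-146a-5p was 972 ± 597 CPM for BDL libraries and 919 ± 173 CPM for sham libraries (SD over 6 each). Its log2 fold change was 0.09 ± 0.35 (SE; edgeR adjusted p = 0.87), with a 95% interval from -0.65 to 0.82, so a change within that range in either direction cannot be told from none. That value depended on the scaling: it was -0.037 with DESeq2 size factors and 0.28 with total counts only. The coefficient of variation was 61.4% in BDL and 18.9% in sham for miR-146a-5p, and 51.5% in BDL and 11.8% in sham for miR-146b-5p. By mean CPM among tested names, miR-146a-5p ranked 48 in BDL and 52 in sham, and miR-146b-5p ranked 139 in BDL and 83 in sham.

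**Figure D1:**
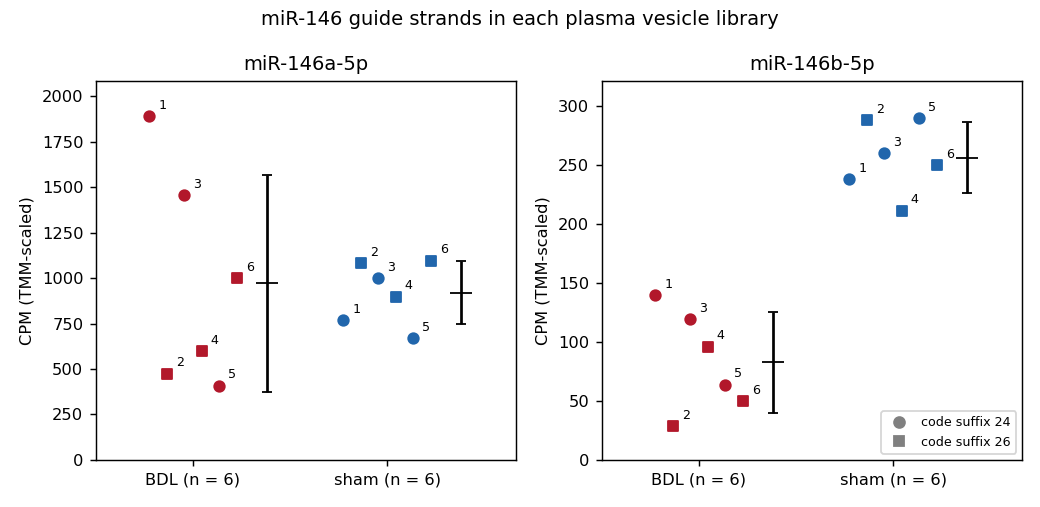
Level of each 5p strand in every library (vertical axis, TMM-scaled CPM from 0), BDL left of sham, with circles for code suffix 24, squares for suffix 26, the library number beside each point, and the mean with 1 SD as a bar. For miR-146b-5p all BDL points lie below all sham points, while for miR-146a-5p the BDL points spread from 409 to 1890 CPM around the sham range of 668 to 1096 CPM.

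Within the code suffixes, miR-146b-5p was lower in BDL with either suffix. With suffix 24 its log2 fold change was -1.25 ± 0.32 (SE, 3 libraries per group; edgeR adjusted p = 0.0118). With suffix 26 it was -2.26 ± 0.52 (SE, 3 libraries per group; edgeR adjusted p = 0.00358). For miR-146a-5p the signs were opposite, at 0.65 ± 0.43 with suffix 24 (edgeR adjusted p = 0.278) and -0.58 ± 0.39 with suffix 26 (edgeR adjusted p = 0.254). The difference of the fold change between suffixes, 26 minus 24, was -1.19 ± 0.60 for miR-146a-5p and -0.98 ± 0.58 for miR-146b-5p. Neither passed the threshold (edgeR interaction, adjusted p = 0.273 and 0.337).

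The balance between the family's 5p strands shifted towards miR-146a-5p in BDL, a comparison within each library that needs no scaling. BDL libraries 1 to 6 had 7.39, 6.06, 8.20, 16.0, 15.6 and 4.97 counts of miR-146b-5p per 100 of miR-146a-5p. Sham libraries 1 to 6 had 31, 26.7, 26, 23.6, 43.4 and 22.8. The highest BDL value (BDL 4, from 12 counts of miR-146b-5p) was below the lowest sham value (sham 6).

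On the log2 scale with 0.5 added to each count, the ratio of miR-146b-5p to miR-146a-5p averaged -3.49 ± 0.70 over BDL libraries and -1.82 ± 0.34 over sham libraries (SD of 6). The difference was -1.67 (two-sided exact permutation p = 0.00216, the smallest these 12 libraries allow, and 0.0108 adjusted over the 5 measures tested this way). It was -1.74 with suffix 24 and -1.60 with suffix 26, where 3 against 3 libraries cannot give a p below 0.1 (exact p = 0.1 in both). How far reads that fit both 5p strands entered this ratio was not tested, because read lengths are not in the table.

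Because the strands share their seed, their sum is the amount of the GAGAACU seed counted. Together they took 0.118 ± 0.0936% of all counts over BDL libraries and 0.115 ± 0.0234% over sham libraries (SD of 6; two-sided exact permutation p = 0.955). BDL values ran from 0.0449% (BDL 2) to 0.278% (BDL 1), and sham values from 0.082% to 0.141%, inside the BDL range. With the counts of both strands added into 1 name before the fit, its log2 fold change was -0.17 (edgeR adjusted p = 0.721). The sum is mostly miR-146a-5p, with 14483 counts of miR-146a-5p and 1144 of miR-146b-5p over the BDL libraries, and 9280 and 2727 over the sham libraries.

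The 3p strands, the less retained side of both hairpins, were near the limit of detection. miR-146a-3p had 2 counts in BDL 3 and 0 in each of the other libraries of either group. Over both arms of Mir146, the 3p side was 2 of 14485 counts in BDL, or 0.0138% (exact Clopper-Pearson 95% interval 0.00167% to 0.0499%). In sham the 3p side was 0 of 9280 counts, with an upper bound of 0.0397% by the same kind of interval. No difference between groups was detectable for it at this depth.

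The counts of miR-146b-3p were 16, 0, 8, 0, 2 and 1 across BDL 1 to BDL 6, against 8, 10, 10, 1, 2 and 1 across sham 1 to sham 6. It was found in 4 of 6 BDL libraries and 6 of 6 sham libraries, and the 2 BDL libraries at 0 are shallow ones. Fitted with no count filter, its log2 fold change was -0.42 ± 0.75 (SE; edgeR adjusted p = 0.777). The 95% interval of that value, -1.89 to 1.04, includes the fold change of the 5p strand of the same hairpin.

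The 3p arm of miR-146b was also set against its own 5p arm. With counts pooled over libraries, the 3p side was 27 of 1171 counts of the hairpin in BDL, or 2.31% (95% interval 1.52% to 3.34%), and 32 of 2759 in sham, or 1.16% (95% interval 0.795% to 1.63%). Per library, the log2 ratio of 3p to 5p with 0.5 added averaged -4.97 ± 0.46 over BDL libraries and -6.57 ± 0.94 over sham libraries (SD of 6), but no direction is read from these means.

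In BDL 2 and BDL 4 the ratio is set by the added 0.5, since the 3p count was 0 and the 5p counts were 16 and 12, and those values lie above every sham library. In BDL 6, sham 4 and sham 6 it rests on 1 count of the 3p strand. Among suffix 24 libraries, which all held 3p counts, the difference was 1.14 (exact permutation p = 0.4; 3 against 3 libraries) and sham 3 lay above all 3 BDL libraries with that suffix. For Mir146 no such ratio was formed, since 11 libraries held no 3p count.

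**Figure D2:**
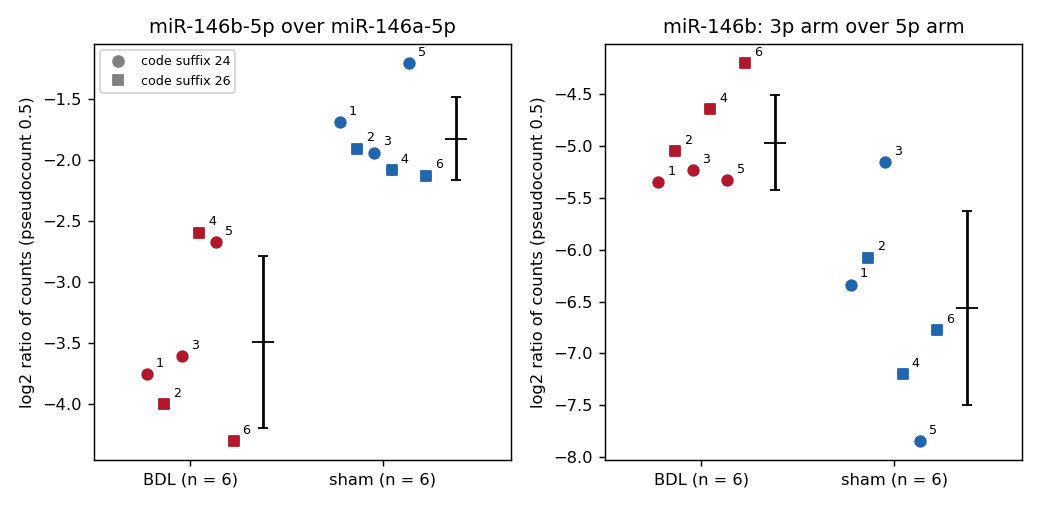
Log2 ratios of counts in each library (vertical axes, 0.5 added to each count), BDL left of sham, symbols by code suffix, mean with 1 SD as a bar. On the left, miR-146b-5p over miR-146a-5p separates the groups, and on the right is the 3p over the 5p arm of miR-146b, where the points of BDL 2 and BDL 4 have a 3p count of 0 and are set by the added 0.5, and sham 3 lies inside the BDL range.

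MicroRNAs of blood leukocytes, the cells in which the family is best known, were given beside it. The 7 names were all tested: miR-142a-5p, miR-142a-3p and miR-150-5p fell, miR-342-3p rose, and 3 did not pass the threshold. Over all names tested 42.8% were called, 18.2% lower and 24.6% higher. The leukocyte names' median log2 fold change was -0.61, against 0.03 over all 341 names. miR-142a-5p, found in all blood cell lineages, had a log2 fold change of -1.90 ± 0.36, with 920 CPM in BDL and 3450 CPM in sham (edgeR adjusted p = 5.98e-04). miR-150-5p, of mature lymphocytes, had -1.96 ± 0.42, with 290 CPM in BDL and 1147 CPM in sham (edgeR adjusted p = 0.00147). miR-342-3p, named here as the exception after its value was seen, had 1.45 ± 0.32 (edgeR adjusted p = 0.00177).

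The summed level of the 7 leukocyte names ran from 865 to 2993 CPM in BDL and from 3045 to 6753 CPM in sham, without overlap, and in 1 library, BDL 4, miR-223-3p and miR-142a-3p had no count. Such separation was not particular to leukocyte names. The platelet and endothelial sum and the fibroblast and stellate sum, given below, were also lower without overlap, and the hepatocyte sum was higher without overlap. In plasma, fewer vesicles from a cell type and less of a microRNA per vesicle cannot be told apart. The part of leukocytes in the result for miR-146b-5p was not tested.

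That sum was then used as the base within each library. For miR-146b-5p the log2 ratio to the leukocyte sum averaged -4.41 ± 0.72 over BDL libraries and -4.24 ± 0.33 over sham libraries (SD of 6), a difference of -0.16 (two-sided exact permutation p = 0.602). For miR-146a-5p the log2 ratio to the same sum averaged -0.92 ± 0.77 over BDL libraries and -2.42 ± 0.55 over sham libraries (SD of 6), a difference of 1.50 (exact permutation p = 0.00649, adjusted 0.0144 over 5 measures). As miR-146a-5p itself did not differ past the threshold, that difference mostly restates the lower leukocyte sum in BDL. The leukocyte list was chosen with earlier results of these data known, so the p-value is no separate support. In BDL 5 the ratio of miR-146a-5p was -2.39, within the sham range of -3.10 to -1.47, and the other BDL libraries lay above that range. The sum is mostly miR-142a-5p, found in all blood cell lineages, so it does not stand for leukocytes alone. Without miR-142a-5p the differences were -0.80 for miR-146b-5p (exact permutation p = 0.0519) and 0.87 for miR-146a-5p (exact permutation p = 0.039), an alternative chosen after seeing the data.

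Other microRNAs known to respond to or act on TLR and NF-κB signalling included names called in either direction. Of 15 such names, 10 were tested, with 2 higher, 1 lower and 7 that missed the threshold, beside 24.6% higher and 18.2% lower over all names tested. Their median log2 fold change was -0.15, and in this fit their count of calls does not stand above that background. miR-187-3p, an interleukin-10-induced repressor of cytokines in human monocytes, rose by 2.28 ± 0.35 on the log2 scale, with 95.7 CPM in BDL and 19.6 CPM in sham (edgeR adjusted p = 1.09e-04). miR-132-3p, induced by CREB and by TLR ligands, rose by 1.65 ± 0.36, with 54.6 CPM in BDL and 17.8 CPM in sham (edgeR adjusted p = 0.00179). miR-181b-5p, which represses an importin that NF-κB uses to enter the nucleus of endothelial cells, had -1.22 ± 0.35 (edgeR adjusted p = 0.0108).

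The most abundant names of that list did not pass the threshold. miR-10a-5p had 5280 CPM in BDL and 4900 CPM in sham, a log2 fold change of 0.11 ± 0.27 (edgeR adjusted p = 0.779). miR-21a-5p had 3363 CPM in BDL and 3365 CPM in sham, a log2 fold change of 0.00 ± 0.30 (edgeR adjusted p = 1.00). miR-155-5p, the NF-κB target most often named with miR-146a, averaged 7.92 CPM in BDL and 6.86 CPM in sham, and its log2 fold change was -0.10 ± 0.42 (edgeR adjusted p = 0.873). Its mean was thus higher in BDL while the fitted value was negative, with an interval from -0.98 to 0.78. Its highest level in any BDL library, 16.0 CPM, lay below the limit for a name with no count in BDL 4, 24 CPM. At these levels a change of miR-155-5p within that interval cannot be told from none.

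**Figure D3:**
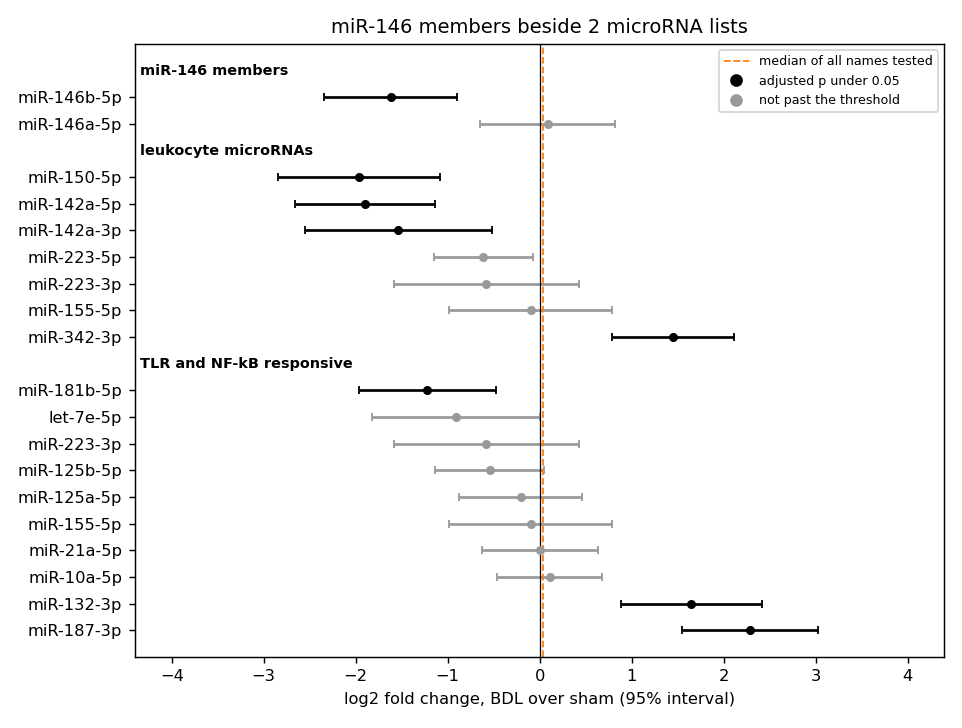
Log2 fold change, BDL over sham, with its 95% interval (horizontal axis) for the tested miR-146 members and the tested names of the leukocyte and the TLR and NF-κB lists, black where the adjusted p is under 0.05, grey otherwise. The dashed line is the median of all names tested, 0.03. miR-146b-5p lies below it, as do miR-142a-5p, miR-142a-3p, miR-150-5p and miR-181b-5p, while miR-342-3p, miR-187-3p and miR-132-3p lie above it, and the interval of miR-146a-5p spans it.

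The names whose levels varied most like each strand from library to library were not the same for both. After each group's mean was taken out, log2 CPM of miR-146b-5p correlated most with miR-181b-5p (Pearson r = 0.89), miR-16-1-3p (r = 0.88) and miR-451a (r = 0.88) over 12 libraries. miR-451a is a red cell microRNA, and it and the other 2 names were themselves lower in BDL (log2 fold changes of -2.63, -1.40 and -1.22 for miR-451a, miR-16-1-3p and miR-181b-5p). miR-146a-5p correlated most with miR-322-3p (r = 0.90), miR-214-5p (r = 0.82) and miR-192-5p (r = 0.81).

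Of the names nearest to miR-146a-5p, miR-192-5p, abundant in liver and gut, had a log2 fold change of 3.37 and miR-322-3p had 1.37, both past the threshold, while miR-214-5p had -0.49 (edgeR adjusted p = 0.438). miR-146a-5p and miR-146b-5p had r = 0.63 with each other and ranked 13 and 19 in each other's order of likeness. These correlations are descriptions over libraries that share depth. In BDL miR-16-1-3p averaged 9.40 CPM and miR-214-5p 9.56 CPM. The limit for a name with no count was 5.40, 24 and 5.51 CPM in BDL 2, 4 and 6. Their correlations thus rest on few counts in those libraries. The correlation with the log2 total count of the library, group means taken out, was 0.41 for miR-146a-5p and 0.31 for miR-146b-5p, and ran from 0.22 to 0.60 in the 6 names given.

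Markers of other cell types were summed in the same way, with no test of the sums. Summed hepatocyte names (miR-122-5p and miR-192-5p) ran from 74550 to 328110 CPM in BDL and from 3845 to 25099 CPM in sham. Summed erythroid names ran from 124995 to 378949 CPM in BDL and from 359146 to 556921 CPM in sham, which overlap. That sum is mostly miR-486a-5p. Summed platelet and endothelial names ran from 632 to 2623 CPM in BDL and from 3156 to 8897 CPM in sham. Summed striated muscle names ran from 640 to 1740 CPM in BDL and from 1146 to 2125 CPM in sham, and epithelial names from 40 to 207 CPM in BDL and from 154 to 224.1 CPM in sham, both of which overlap. Fibroblast and stellate cell names summed to 1093 to 2191 CPM in BDL and 2415 to 3331 CPM in sham, a sum mostly of miR-143-3p, while of the 4 names 2 were higher and 2 lower. By name, 2 of 4 tested erythroid names and 3 of 4 striated muscle names were lower in BDL, with 0 higher. Of the platelet and endothelial names 2 of 2 were lower, of the epithelial names 1 of 3, with 0 higher in either list. Both lists' shares stand beside 18.2% lower and 24.6% higher over all names tested, as do the 2 of 2 hepatocyte names that were higher. Of these lists 0 names were at 0 in every library. Their part in the values of the miR-146 strands was not tested.

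The fall of miR-146b-5p held in each fit that kept the 5p strands apart. Leaving out each of the 12 libraries gave log2 fold changes from -1.93 to -1.49, with edgeR adjusted p from 2.97e-04 to 0.00507. For miR-146a-5p the same range was -0.30 to 0.17, and it was lowest without BDL 1, the library with its highest level.

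**Figure D4:**
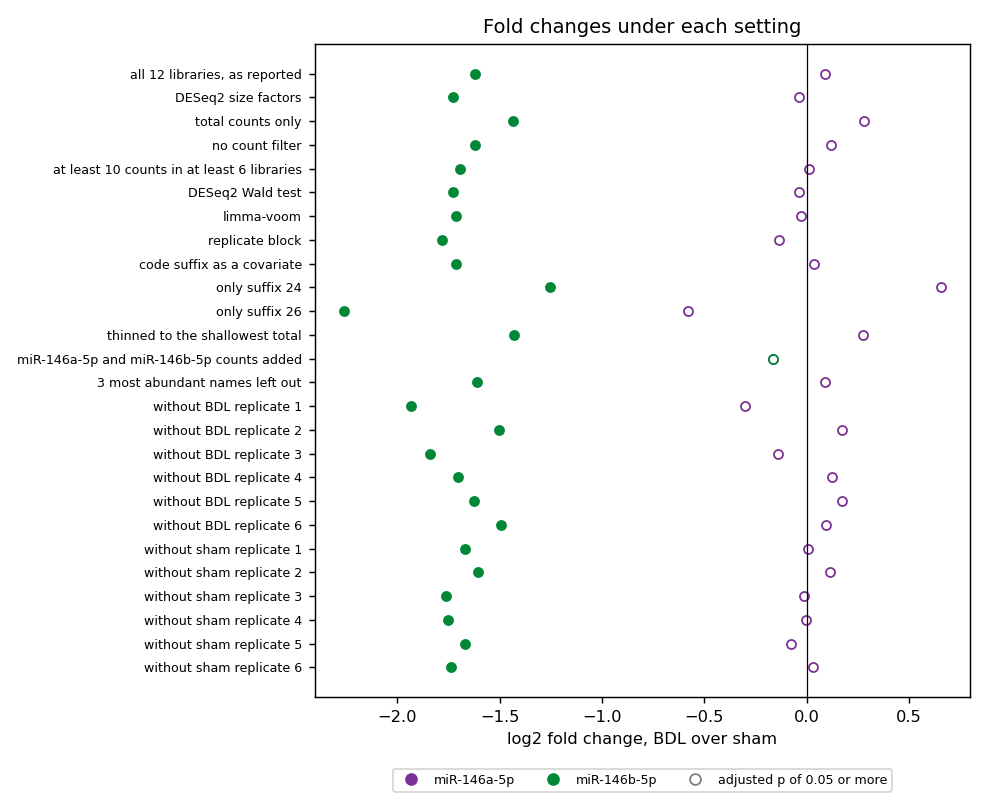
Log2 fold change, BDL over sham (horizontal axis), of miR-146a-5p and miR-146b-5p under each setting (rows), filled where the adjusted p is under 0.05. miR-146b-5p is filled and between -2.26 and -1.25 in every row but that in which both 5p counts were added, where both points fall on -0.17, and miR-146a-5p is open in every row.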

How the data were processed

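Per the labels' protocols, RNA from plasma vesicles precipitated with ExoQuick was made into small RNA libraries (NEBNext, 40 ng of RNA, 15 PCR cycles). Per the submitters' processing notes, cutadapt and STAR were used. Their versions, the build, the microRNA annotation and the handling of reads that fit several names were not given in the sources used here. Whole-number counts per mature microRNA name, with no normalisation, were deposited by the authors in 12 columns that each matched 1 sample title. Groups come from the titles, since the treatment protocol field names ligation for all samples. The 1915 mouse names entered library sizes and 67 names of other species did not. Pairs of libraries within a group all differed beyond counting noise.

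Counts were tested with edgeR 4.0.16 (R 4.3.3; TMM, filterByExpr by group, quasi-likelihood F test, Benjamini-Hochberg over 341 names). The SE of a log2 fold change is its size over the root of its F value, and log2 CPM has a prior count of 2. The same code was tested on simulated data. Measures within libraries, 5 in all, were compared by two-sided exact permutation over 924 arrangements (scipy 1.17.1), with 0.5 added to counts in ratios. DESeq2 1.42.0 and limma 3.58.1 were alternatives.

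The members and both lists were chosen with earlier results of these data known. Named besides the members were the 3 closest names to each by correlation, and in each list the 2 smallest p-values and 2 highest levels. miR-142a-3p, miR-342-3p, miR-155-5p and miR-223-3p were named after their values were seen. Sample numbers are shared between groups, but same-numbered samples did not deviate together throughout (r from -0.09 to 0.31 over 6 pairs). The 2 of 6 BDL libraries most like their own number were BDL 5 (r = 0.31) and BDL 6 (r = 0.30). Samples were therefore not treated as pairs, and the replicate block is given as an alternative.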

Additional observations from a re-analysis of the deposited data

Results flagged for a closer look

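Of 54 groups of 6 values examined, 3 held a library far from the others, and chance gives about 1 in 20. The log2 ratio of miR-146b-5p to the leukocyte sum was -3.60 in sham 6, against -4.55 to -4.30 in the other sham libraries. Log2 CPM of miR-223-3p was 0.21 in BDL 4, which is a count of 0 in the shallowest library, against 4.90 to 6.66 in the other BDL libraries. Log2 CPM of miR-21a-5p was 10.63 in sham 6, against 11.64 to 12.10 in the other sham libraries. None of the levels of miR-146a-5p or miR-146b-5p, nor their ratio, held such a library.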

How the results depend on the processing

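The log2 fold change of miR-146b-5p kept its sign and call in all fits except that with both 5p counts added (-0.17). That of miR-146a-5p was never past the threshold, and its sign turned with DESeq2 size factors (-0.037), DESeq2 (-0.037), limma-voom (-0.029), suffix 26 (-0.58), added 5p counts (-0.17) and the replicate block (-0.13); leaving out a library gave -0.30 (without BDL 1) to 0.17. DESeq2 size factors gave a median over all names of -0.11 in place of 0.03, and relative to it miR-146a-5p had 0.07 and miR-146b-5p -1.62. With the replicate block miR-146b-5p had -1.78 (edgeR adjusted p = 0.0022). The count of names past the threshold was 70 after thinning to 121003 counts, where fewer names were tested, against 146 as reported and 102 to 166 in the other settings. Counts in the TLR and NF-κB list were 5 with no count filter, 5 with DESeq2, 5 in suffix 24 and 1 thinned, and 3 to 5 leaving out a library (5 without sham 3). The share of both 5p strands differed by 0.0573 percentage points in suffix 24 and -0.0514 in suffix 26, and by -0.0289 to 0.0176 leaving out a library. Where 3 were set against 3, exact tests could not pass: the ratio of the 5p strands differed by -1.74 (suffix 24), -1.60 (suffix 26) and -1.67 (1 mean per first digit), the ratio of miR-146a-5p to leukocyte names by 1.51, 1.49 and 1.50, and the arm ratio of miR-146b by 1.14, 2.06 and 1.60. The arm ratio of miR-146b, which the added 0.5 sets in BDL 2 and BDL 4, differed by 1.60 over all libraries (exact p = 0.00866) and under the replicate block (exact p = 0.0625, 6 differences). The causes were not tested.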
